A study of Mus musculus with 8 samples.

Results

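The conjugation enzymes of phase 2 detoxification were followed in mouse liver through 3 gene families, the glutathione S-transferases (Gst), the UDP-glucuronosyltransferases (Ugt) and the cytosolic sulfotransferases (Sult). Members were all genes whose symbol places them in the Gst classes a, k, m, o, p or t, in Ugt1, Ugt2 or Ugt3, or in Sult1 to Sult5. This rule found 61 of the 55421 transcripts in the tables, namely 21 Gst, 21 Ugt and 19 Sult genes, each with a single row. Between ZT18 and ZT6, over both treatments, 4 of the 46 members with enough counts for a test changed with edgeR: Gstm6, Gstm7 and Ugt3a1 were lower and Ugt2b37 was higher at ZT18. This is 8.70% of the members, against 3.68% of all tested genes, and leaving out 1 library gave 0 to 7 calls. Between sudachitin and control no member passed with edgeR and its default filter on low counts, against 0% to 0.0207% of all tested genes. DESeq2 called 1 member, Gstt3 at ZT18, against 0.317% of all tested genes. Without a filter on low counts edgeR did call members at ZT18 and over both times, as given in the section on processing.

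Phase 2 enzymes attach a water-soluble group to drugs, plant compounds, hormones and bile pigments so that they can leave the body in bile or urine. Glutathione S-transferases join the tripeptide glutathione to electrophilic carbons, UDP-glucuronosyltransferases of the endoplasmic reticulum transfer a sugar acid from UDP-glucuronic acid, and sulfotransferases transfer sulfate from the donor PAPS. Flavonoids are commonly excreted as glucuronides and sulfates, and in rodent liver many of these genes are set by xenobiotic-sensing transcription factors, by sex and by the circadian clock.

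The livers came from male C57BL/6J mice bought at 4 weeks of age, kept 4 weeks before use and fed a diet with 45% of its calories as fat, which all groups shared. Treated mice received sudachitin, a citrus polymethoxyflavone, at 100 mg/kg by gavage every other day between ZT8 and ZT10, where ZT counts hours from lights on, and the controls received the PBS vehicle on the same schedule. Collection was at ZT18 or ZT6 when the mice were 30 weeks old, and the 4 groups sudachitin ZT18, control ZT18, sudachitin ZT6 and control ZT6 held 2 mice each, drawn from cohorts of 12 sudachitin and 11 control mice. The series set out to examine the clock and energy metabolism under sudachitin. The sample titles name mice, so p-values measure the spread between mice. The 2 mice of each ZT6 group share the start of their title code, and the 2 mice of each ZT18 group do not. No start is common to different groups, so that a shared cage or handling, if the codes mark one, cannot be told apart from the group. In that case the ZT6 pairs would each share it and the ZT18 pairs would not.

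Poly(A) RNA was sequenced as 150-base pairs, and 13914116 to 17759630.5 counts per library fell in exons. The members took 1.27% to 1.60% of all FPKM (a count scaled to exon length and library total), the highest share being that of control ZT18 replicate 1. Of 8 hepatocyte markers, the 7 in the table summed to 26370 to 32740 FPKM, so hepatocyte transcripts were abundant in every library. The single markers were not uniform. In control ZT18 replicate 1, 4 of the 7 (Apoa1, Serpina1c, Cps1 and Ass1) were below all other libraries and 1 (Ttr) was above. In bulk liver, fewer cells of a type and less RNA per cell cannot be told apart.

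One control library stood apart for these genes. Control ZT18 replicate 1 was the highest of the 8 libraries for 20 of the 46 tested members and the lowest for 6, which is 56.5%, against 38.2% of all 14506 tested genes. The next highest share of members was 34.8%, in sudachitin ZT6 replicate 1. With the Ugt1a locus counted once, the figure for control ZT18 replicate 1 was 47.4% of 38 members, and the next highest was 36.8%, in sudachitin ZT18 replicate 2. In the same library 13 female-biased liver genes summed to 104 FPKM, against 2.32 to 10.5 FPKM in the other libraries, and 13 male-biased genes summed to 1631 FPKM, against 2009 to 5239 FPKM. Of the 11 female-biased genes with counts, 6 were above all other libraries there and 1 was below. Of the 13 male-biased genes, 10 were below all other libraries and 0 above. The sum of 16 targets of the xenobiotic sensors NRF2, AHR, CAR and PXR was 720.0 FPKM there and 313 to 413 FPKM elsewhere, and 6 cholangiocyte markers summed to 24.3 FPKM there and 5.95 to 17.9 FPKM elsewhere. Of these 6 markers only Spp1 was above all other libraries, at 66.7 TMM-scaled CPM (counts relative to the library total, adjusted for composition), and Cftr had no count there. Of the 16 targets of the xenobiotic sensors, 9 were above all other libraries there and 1 was below. Cyp3a11 had 2000 CPM there, against 306.4 to 759.2 CPM elsewhere. The AHR target Cyp1a2 was the 1 below, at 135.3 CPM against 237.9 to 437.7 CPM, and the AHR targets Cyp1a1 and Tiparp were within the range of the other libraries. Among the female-biased genes, Cyp2b9 had 308.8 CPM there, against 0.35 to 26.5 CPM elsewhere. The part of these features in the results was not tested. Member values that moved by over 1.5 times without this library are given with and without it.

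By FPKM, the tested members furthest above the next library there were Gsta1, Gstm3 and Gsta2. The theta-class gene Gstt2 followed, at 1.77 times the next library. Not all members of the alpha and mu classes stood apart: Gsta3 was 1.05 times the next library, and Gstm4, Gstm5, Gstm6 and Gstm7 were not above the others. Gsta1, an alpha-class enzyme known as inducible in mouse liver, stood at 0.12 and 0.12 FPKM in sudachitin ZT18, 7.79 and 0.25 FPKM in control ZT18, 0.18 and 0.58 FPKM in sudachitin ZT6 and 0.39 and 0.071 FPKM in control ZT6 livers. Gstm3, a mu-class gene, stood at 7.46 and 5.83 FPKM in sudachitin ZT18, 47.7 and 7.46 FPKM in control ZT18, 8.21 and 9.80 FPKM in sudachitin ZT6 and 10.0 and 8.29 FPKM in control ZT6 livers. The Gsta1 level of this mouse was 13.5 times that of the next library, and its Gstm3 level was 4.77 times that of the next library.

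Gstm1, the most abundant mu-class gene, had 708 FPKM in control ZT18 replicate 1 and 261 to 451 FPKM in the other 7 livers. Gsta2, close in sequence to Gsta1, had 12.7 FPKM there and 2.57 to 5.56 FPKM elsewhere. Gsta4, which conjugates the lipid peroxidation product 4-hydroxynonenal, had 36.1 FPKM there and 13.5 to 20.8 FPKM elsewhere. Members of the other families went both ways in this mouse. Of 19 tested Ugt members, 9, all of the Ugt1a locus, were above all other libraries and 3 were below. Of 8 tested Sult members, 1 was above and 2 were below, and of 19 tested Gst members 12 were above and 0 below. Among those below, Sult2a8, a bile acid sulfotransferase of mouse liver, had 59.8 FPKM there and 141 to 188 FPKM elsewhere. Ugt2b1, also below, had 50.3 FPKM there and 66.1 to 114 FPKM elsewhere.

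**Figure D1:**
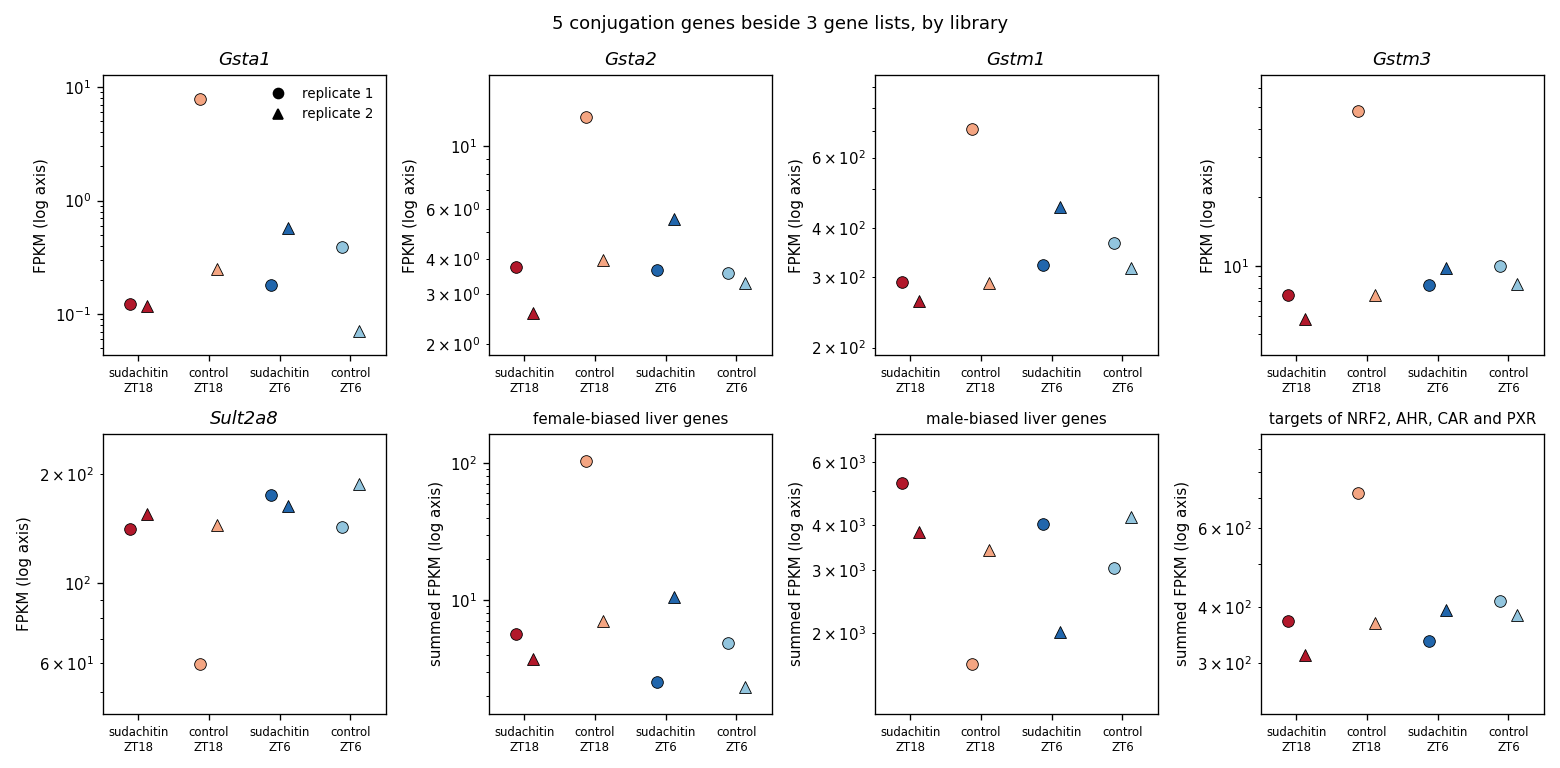
FPKM of Gsta1, Gsta2, Gstm1, Gstm3 and Sult2a8 and the summed FPKM of 3 gene lists (vertical log axes) in the 8 libraries, grouped along the horizontal axis by treatment and time, with circles for replicate 1 and triangles for replicate 2. Control ZT18 replicate 1 is the highest point for the 4 Gst genes, the female-biased list and the target list, and the lowest for Sult2a8 and the male-biased list.

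Part of the alpha-class signal cannot be assigned to 1 gene. The coding sequences of Gsta1 and Gsta2, of 669 and 666 bases, are 98.0% identical. Of the 100-base windows of the Gsta1 transcript, 81.8% occur in another gene, among them Gm3776 and Gm10639, which are not members, and Gsta2. The share was 35.0% for Gsta2 and 13.8% for Gstm3. The first 120 coding bases of Gsta1 and Gsta2 are the same and are shown once, in lower case throughout because no base differs. How reads with several positions were counted is not given in the sources used here.
Gsta1 and Gsta2: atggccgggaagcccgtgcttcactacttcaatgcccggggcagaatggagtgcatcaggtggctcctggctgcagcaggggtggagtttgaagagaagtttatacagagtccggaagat

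Levels per length ranged widely within each family. On the FPKM scale, averaged over the 8 libraries, 16 members reached 100 FPKM or more, 34 reached 10 FPKM, 7 lay between 1 and 10 FPKM and 13 were above 0 but under 1 FPKM. The other 7 members, Gstt4, Sult1c1, Sult2a3, Sult2a4, Sult2a5, Sult2a6 and Sult3a2, had no count in any library. In all, 15 members were too low for a test: Gsto2, Gstt4, Ugt2a1, Ugt2a2, Sult1c1, Sult2a1 to Sult2a6, Sult2b1, Sult3a1, Sult3a2 and Sult4a1.

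Gsta3, the constitutive alpha enzyme known to detoxify aflatoxin epoxide in mice, was the most abundant member, at 509 ± 23.8 FPKM in sudachitin ZT18, 512 ± 77.0 FPKM in control ZT18, 500.4 ± 57.2 FPKM in sudachitin ZT6 and 439 ± 31.3 FPKM in control ZT6 livers (SD, n = 2 each). Gstp1 and Gstm1 followed, with means over all libraries of 393 and 376 FPKM. Below them came Gstt1 (138 FPKM), a theta-class enzyme for small halogenated compounds, the mitochondrial and peroxisomal Gstk1 (68.8 FPKM), Gstm6 (38.6 FPKM), Gstm2 (30.1 FPKM) and Gsto1 (24.3 FPKM), an omega-class enzyme with dehydroascorbate reductase activity. Summed over the family, Gst genes reached 1724 and 1515 FPKM in sudachitin ZT18, 2099 and 1543 FPKM in control ZT18, 1658 and 1671 FPKM in sudachitin ZT6 and 1504 and 1636 FPKM in control ZT6 livers. These sums overlapped between every pair of groups except sudachitin ZT6 and control ZT6. The highest library was 1.40 times the lowest, and 1.15 times without control ZT18 replicate 1.

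In the sulfotransferase family, Sult2a8 (mean 146 FPKM), the phenol sulfotransferase Sult1a1 (116 FPKM) and Sult1d1 (26.7 FPKM), which acts on catecholamines, made up nearly the whole signal. Sult1b1, which sulfates thyroid hormones, followed at 4.48 FPKM and Sult1c2 at 1.57 FPKM. The estrogen sulfotransferase Sult1e1 was at 0.18 FPKM. Family sums were 319.9 and 298 FPKM in sudachitin ZT18, 201 and 314 FPKM in control ZT18, 305 and 320.4 FPKM in sudachitin ZT6 and 290.1 and 322.5 FPKM in control ZT6 livers. The single low value, again of control ZT18 replicate 1, went with its Sult2a8 level, and without that library the highest sum was 1.11 times the lowest, against 1.60 times with it.

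**Figure D2:**
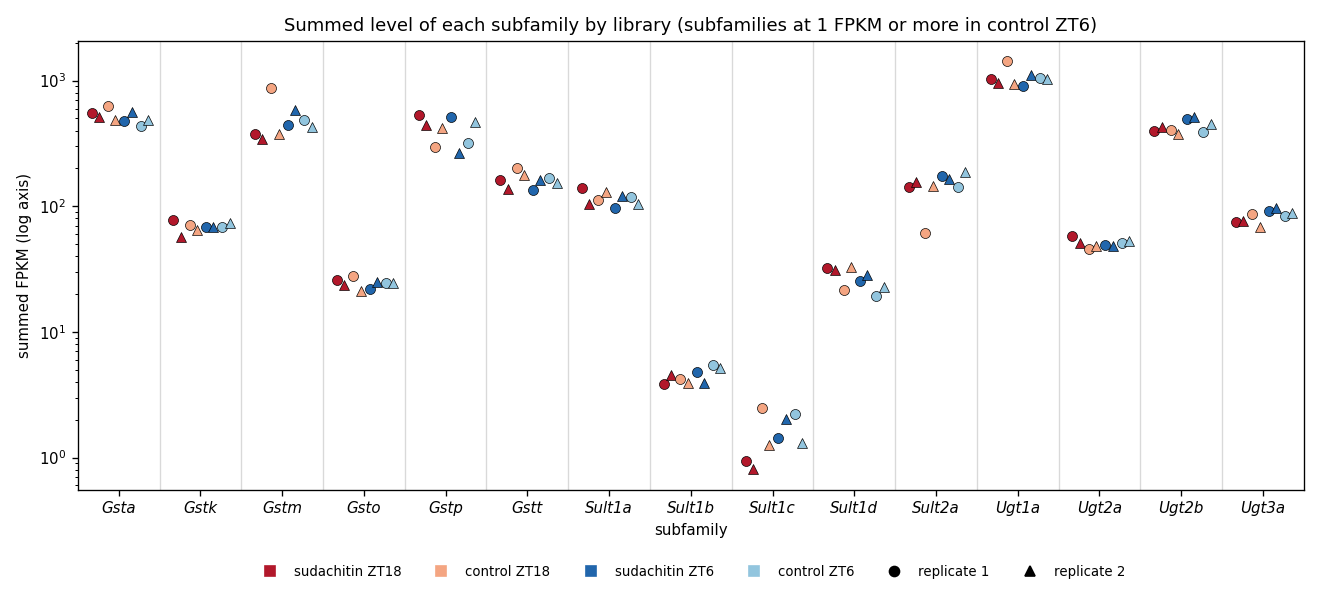
Summed FPKM (log axis) of each subfamily with at least 1 FPKM in control ZT6 livers, by library; colours give the 4 groups, circles replicate 1 and triangles replicate 2. The Gstm sum of 876 FPKM and the Sult2a sum of 60.8 FPKM of control ZT18 replicate 1 stand apart, and the Gstp sums spread from 266 to 529.5 FPKM, with both mice of sudachitin ZT6 far from each other.

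The Ugt family sum cannot be read directly, because its 9 Ugt1a rows count the same exons. Mouse Ugt1a genes each have an own first exon, which encodes the part that binds the substrate, spliced to a common set of exons. The rows shared 1311 exon bases in 4 blocks of chromosome 1 (GRCm38, plus strand), at chr1:88215044-88215175, chr1:88215795-88215882, chr1:88216138-88216357 and chr1:88218127-88218997, which is 40.6% to 59.9% of the exon bases of a row. The junctions show the arrangement: 30 bases of the own exon in lower case, followed by the first 30 bases of the common exon in capitals, which starts at chr1:88215044.
Ugt1a1: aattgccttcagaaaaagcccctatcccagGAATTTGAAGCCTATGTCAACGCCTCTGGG
Ugt1a5: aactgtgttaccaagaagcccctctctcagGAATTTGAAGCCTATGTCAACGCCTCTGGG
Ugt1a6a: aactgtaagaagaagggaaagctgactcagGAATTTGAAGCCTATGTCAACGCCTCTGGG
Ugt1a6b: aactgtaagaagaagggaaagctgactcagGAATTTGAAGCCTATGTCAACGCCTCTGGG
Ugt1a8: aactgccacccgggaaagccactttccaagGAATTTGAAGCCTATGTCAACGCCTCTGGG
Ugt1a9: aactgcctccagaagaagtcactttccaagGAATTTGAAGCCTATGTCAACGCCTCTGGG

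The capitals are identical in all 6, and the ends of the own exons of Ugt1a6a and Ugt1a6b are identical as well. The lowest row was Ugt1a8 in each of the 8 libraries, and it was taken as the level of the common part. What a row counted beyond it was expressed as CPM, a count relative to the total given for the library. Ugt1a1, which conjugates bilirubin, had 71.9 and 79.6 CPM in sudachitin ZT18, 129 and 62.1 CPM in control ZT18, 73.4 and 89.7 CPM in sudachitin ZT6 and 92.9 and 87.0 CPM in control ZT6 livers. Its level was thus highest in control ZT18 replicate 1 and lowest in its group mate, with the other libraries between them.

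Next came Ugt1a6b, at 20.3 to 27.3 CPM, Ugt1a6a, at 14.8 to 22.7 CPM, and Ugt1a5, at 10.3 to 21 CPM. The Ugt1a6 enzymes are known for simple phenols. With the common exons included, 100% of the 100-base windows of Ugt1a6a and 71.5% of those of Ugt1a6b occur in another gene. The levels of Ugt1a6a and Ugt1a6b can therefore not be fully told apart. Ugt1a9 stood at 17.2 CPM in control ZT18 replicate 1 and at 1.56 to 3.71 CPM in the other libraries. Ugt1a2, Ugt1a7c and Ugt1a10 counted at most 11.5 above the Ugt1a8 row in any library, so their FPKM of 68.0 to 155 was nearly all common exon. With the locus represented by the Ugt1a1 row alone, the Ugt family summed to 676.5 and 693 FPKM in sudachitin ZT18, 752 and 621 FPKM in control ZT18, 764 and 818 FPKM in sudachitin ZT6 and 678 and 739.8 FPKM in control ZT6 livers. Both sudachitin ZT6 livers were above the other 6.

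**Figure D3:**
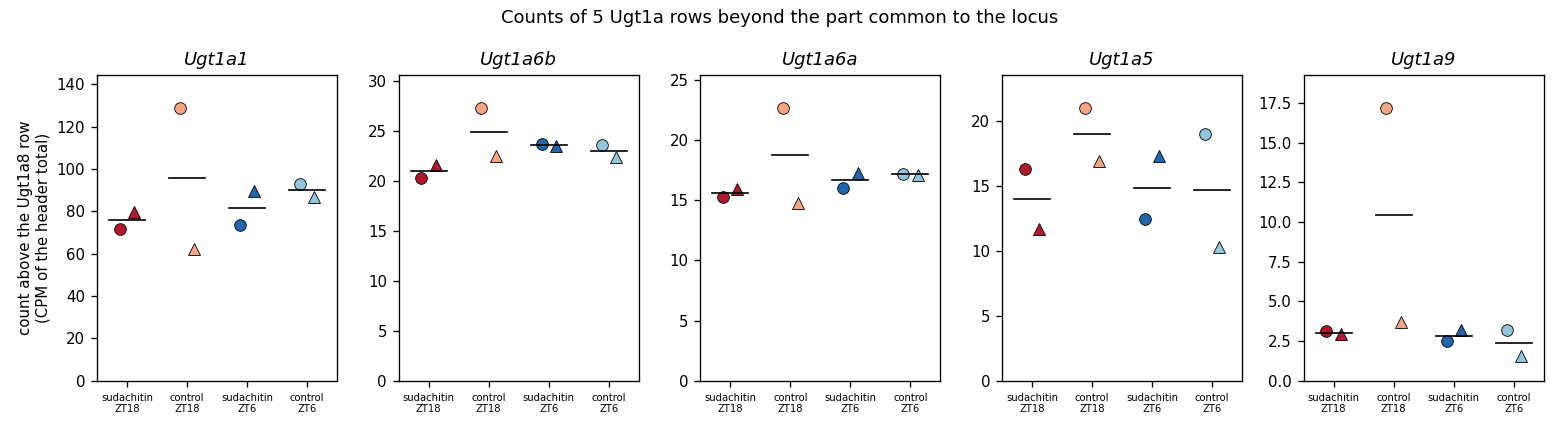
Counts of 5 Ugt1a rows above the Ugt1a8 row, in CPM of each header total (vertical axes, from 0), in the 4 groups, with circles for replicate 1, triangles for replicate 2 and bars for group means. Ugt1a1 has the highest values, 62.1 to 129 CPM, and Ugt1a9 is at 17.2 CPM in 1 control ZT18 liver and at most 3.71 in the others.

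Outside the Ugt1a locus, Ugt2b5 (mean 146 FPKM) and Ugt2b36 (120.2 FPKM), of the subfamily that glucuronidates steroids and many drugs, were the most abundant, followed by Ugt2b1 (81.0 FPKM), Ugt3a2 (70.5 FPKM), Ugt2b34 (63.4 FPKM) and Ugt2a3 (50.5 FPKM). Ugt2b37 and Ugt2b38 stood far below their neighbours in the Ugt2b cluster of chromosome 5, at 0.29 and 0.88 FPKM.

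**Figure D4:**
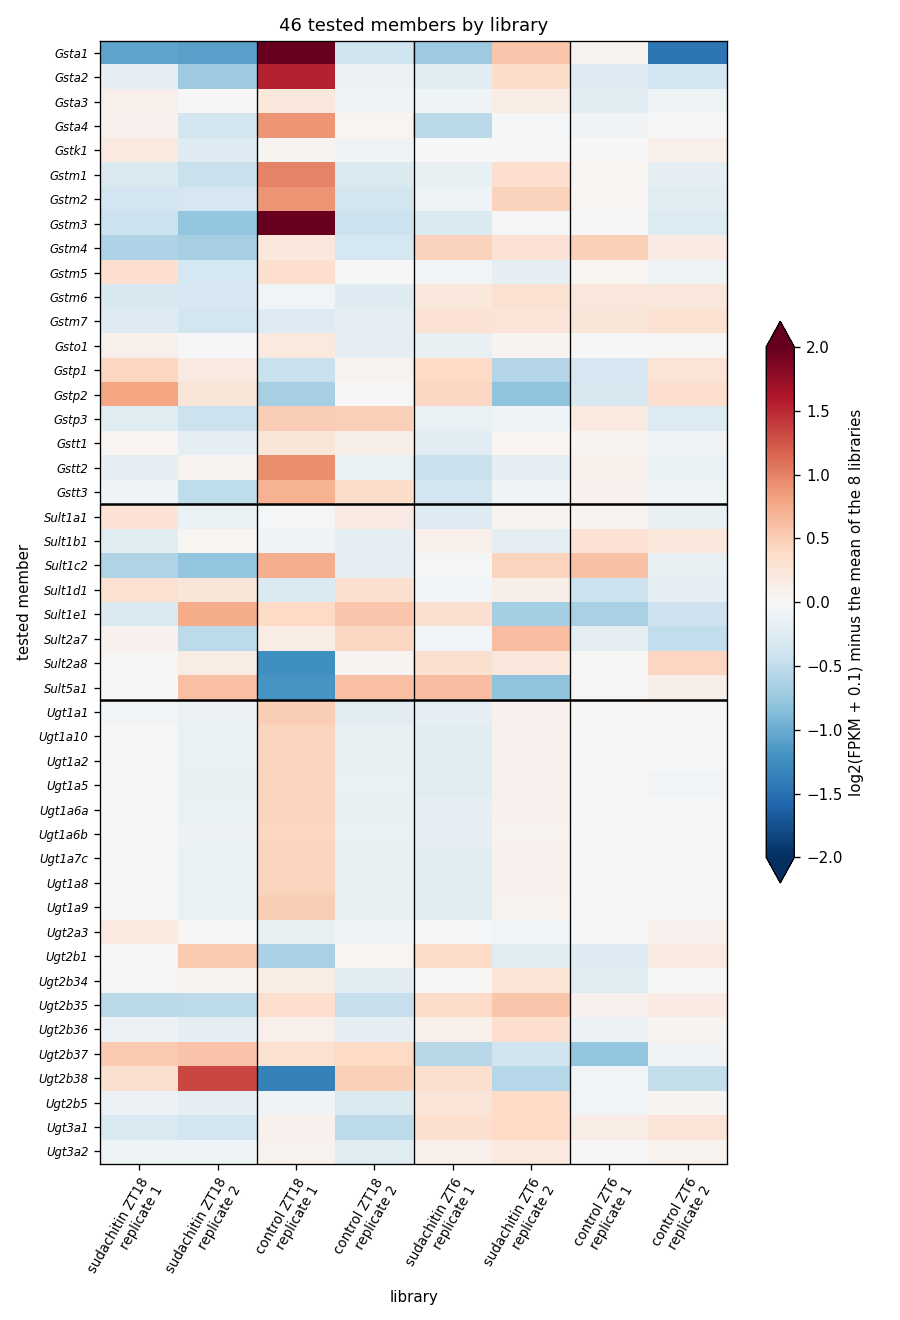
Deviation of log2(FPKM + 0.1) from the mean of the 8 libraries (colour, cut at 2 in either direction) for the 46 tested members (rows, divided by family) in each library (columns, divided by group). The column of control ZT18 replicate 1 holds the strongest colours, the 9 Ugt1a rows move as one, and Gstm6 and Gstm7 are pale red at ZT6 and pale blue at ZT18.

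The time of day gave the calls made with edgeR. In the comparison of ZT18 with ZT6 over both treatments, 4 of the 46 tested members passed an adjusted p of 0.05 with edgeR, which is 8.70%, against 3.68% of all tested genes. Of these, 3 were lower and 1 was higher at ZT18, against 1.82% and 1.86% of all genes, and 9 members (19.6%) had an unadjusted p under 0.05, against 20.4%. Libraries of the 2 times did not overlap for the same 4 members, 3 lower (6.52%) and 1 higher (2.17%), against 7.02% and 5.99% of all tested genes, so members whose times did not overlap were no more frequent than among all genes.

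Gstm7, a mu-class transferase with 8 exons at chr3:107926334-107931817 (GRCm38, minus strand), had 14.8 and 13.6 FPKM in sudachitin ZT18 and 14.8 and 15.5 FPKM in control ZT18 livers. At ZT6 it had 21.7 and 21.2 FPKM in sudachitin and 20.9 and 21.8 FPKM in control livers. All 4 livers of ZT18 were below all 4 of ZT6, and the log2 change was -0.49 (SE 0.077, adjusted p = 0.011), a 0.711-fold level.

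Gstm6, its neighbour with 8 exons at chr3:107938847-107943749 on the same strand, had 30.6 and 30.0 FPKM in sudachitin ZT18, 36.8 and 31.8 FPKM in control ZT18, 44.0 and 46.9 FPKM in sudachitin ZT6 and 44.6 and 44.4 FPKM in control ZT6 livers. The times did not overlap here either, and the log2 change was -0.43 (SE 0.075, adjusted p = 0.018). On the FPKM scale the sudachitin ZT18 livers lay below the control ZT18 livers in both genes, a difference that did not pass and that for Gstm7 was an overlap on the TMM-scaled CPM scale, with 45.2 and 42.6 CPM in sudachitin ZT18 and 42.1 and 47.6 CPM in control ZT18 livers.

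The counts of these neighbours come from separable sequence. Their coding sequences differ at 114 positions (82.6% identical), and of the 100-base windows of the transcripts 0% (Gstm7) and 2.47% (Gstm6) occur in another gene. The first 120 coding bases are shown with the 18 differing bases in capitals.
Gstm6: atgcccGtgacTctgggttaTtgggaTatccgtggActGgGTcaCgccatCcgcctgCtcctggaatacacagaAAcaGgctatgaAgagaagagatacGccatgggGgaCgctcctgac
Gstm7: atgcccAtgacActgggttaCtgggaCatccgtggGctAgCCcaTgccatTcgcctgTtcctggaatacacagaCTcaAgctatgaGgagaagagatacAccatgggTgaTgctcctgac

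Gstm4, another mu-class gene of this cluster, had 6.25 and 6.03 FPKM in sudachitin ZT18, 11.2 and 7.55 FPKM in control ZT18, 13.4 and 11.8 FPKM in sudachitin ZT6 and 13.4 and 10.8 FPKM in control ZT6 livers. Its times overlapped through control ZT18 replicate 1, and its log2 change of -0.65 (SE 0.15) missed the threshold at an adjusted p of 0.053. Without that library the value was -0.82 (SE 0.12, adjusted p = 0.0059). The direction of 3 other mu-class genes depended on the same library. Gstm3, Gstm1 and Gstm2 had log2 changes of 0.64, 0.076 and -0.0019 with it and of -0.31, -0.31 and -0.38 without it, and Gstm5 had 0.24 with and 0.18 without it. None of these values passed the test.

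Ugt3a1, whose human counterpart uses UDP-N-acetylglucosamine as sugar donor, has 7 exons at chr15:9279829-9315032 (plus strand). It had 9.82 and 9.29 FPKM in sudachitin ZT18, 12.9 and 8.45 FPKM in control ZT18, 15.3 and 16.2 FPKM in sudachitin ZT6 and 13.6 and 14.6 FPKM in control ZT6 livers. The highest ZT18 liver was just under the lowest ZT6 liver, and the log2 change was -0.51 (SE 0.11, adjusted p = 0.044). Ugt3a2, the second gene of this subfamily, had a log2 change of -0.13 that did not pass.

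Ugt2b37, at chr5:87240493-87254804 (minus strand), went the other way. It had 0.43 and 0.45 FPKM in sudachitin ZT18, 0.36 and 0.39 FPKM in control ZT18, 0.15 and 0.18 FPKM in sudachitin ZT6 and 0.12 and 0.25 FPKM in control ZT6 livers. The times did not overlap and the log2 change was 1.22 (SE 0.28, adjusted p = 0.049), a 2.32-fold level. These values rest on 30.5, 33, 25 and 23.5 counts at ZT18 and 10, 10.5, 6.5 and 15.5 counts at ZT6 (sudachitin pair first), so they are the least precise of the 4.

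**Figure D5:**
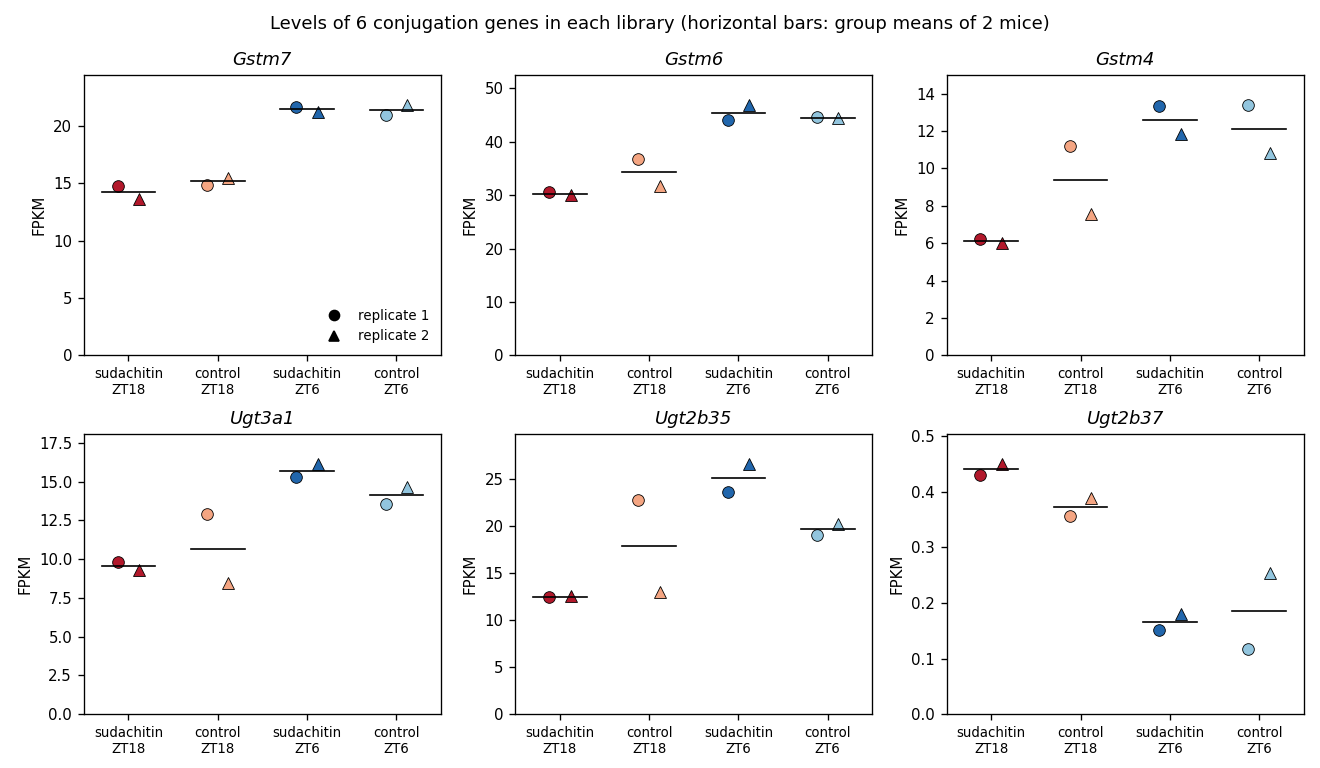
FPKM (vertical axes, from 0) of Gstm7, Gstm6, Gstm4, Ugt3a1, Ugt2b35 and Ugt2b37 in the 4 groups, with circles for replicate 1, triangles for replicate 2 and bars for group means of 2 mice. The ZT18 points of Gstm7, Gstm6 and Ugt3a1 lie below and those of Ugt2b37 above all ZT6 points, whereas control ZT18 replicate 1 of Gstm4 and Ugt2b35 lies among the ZT6 points.

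The 4 calls depended on single libraries. Without control ZT18 replicate 1 there were 7 calls among 47 tested members, against a background of 6.99%: the same 4, Gstm4, Ugt2b35 with a log2 change of -0.77 (adjusted p = 0.0052) and Sult1d1 with 0.46 (adjusted p = 0.033). Without any one of 4 other libraries (sudachitin ZT18 replicate 1, control ZT18 replicate 2, sudachitin ZT6 replicate 2 and control ZT6 replicate 1) the count was 1, which was Gstm7, against backgrounds of 1.13% to 1.7%. It was 2 without sudachitin ZT18 replicate 2 (Gstm6 and Gstm7, background 2.77%), 3 without control ZT6 replicate 2 (Gstm4, Gstm7 and Ugt2b37, background 1.3%) and 0 without sudachitin ZT6 replicate 1 (background 1.09%). Gstm7 thus kept its call in 7 of 8 omissions, Gstm6 and Ugt2b37 in 2 and Ugt3a1 in 1. DESeq2 called 6 members, adding Gstm4 and Ugt2b5, against 6.55% of all tested genes. Ugt2b37 missed the threshold when libraries were scaled by total counts, and Ugt3a1 missed it with limma.

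Within each treatment the same members had the same sign but did not pass. In sudachitin livers 0 of 46 members passed between ZT18 and ZT6 with edgeR, against 0.186% of all tested genes; 8 members (17.4%) had an unadjusted p under 0.05, against 12.6% of all genes, and DESeq2 called Gstm4, Ugt2b35 and Ugt3a1, against 1.89% of all genes. Libraries did not overlap for 14 members with lower (30.4%) and 6 with higher levels at ZT18 (13%), against 22.3% and 23.5% of all genes. Gstm4 had the smallest p, with a log2 change of -0.95 (SE 0.18, adjusted p = 0.085). Ugt2b35, a Ugt2b enzyme, had 12.4 and 12.6 FPKM in sudachitin ZT18 livers, against 23.7 and 26.7 FPKM in sudachitin ZT6 livers, a log2 change of -0.93 (SE 0.20, adjusted p = 0.13). The groups were far apart for both genes, and both passed when only these 4 libraries were fitted. Without control ZT18 replicate 1, which is not in this comparison but enters the estimate of the spread, edgeR called Gstm4 (adjusted p = 0.024), Ugt2b35 (adjusted p = 0.014) and Ugt3a1, against 1.18% of all genes, and without replicate 2 of that group it called the same 3. Ugt2b37 had a log2 change of 1.46 (SE 0.40, adjusted p = 0.19).

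In control livers 0 of 46 members passed between ZT18 and ZT6 with edgeR, against 0.524% of all tested genes; 10 members (21.7%) had an unadjusted p under 0.05, against 12.9%, and DESeq2 called 0. Libraries did not overlap for 6 members with lower (13%) and 10 with higher levels at ZT18 (21.7%), against 21.1% and 21.3% of all genes. Gstm7 had the smallest p, with a log2 change of -0.47 (SE 0.12, adjusted p = 0.16), and Gstm6 had -0.36 (SE 0.11, adjusted p = 0.24). On the other side stood Gstt3, a theta-class gene, with 0.56 (SE 0.17, adjusted p = 0.24) and Gsta2 with 1.28 (SE 0.45, adjusted p = 0.29), the Gsta2 value being 0.27 without control ZT18 replicate 1. Of the 46 members 31 had a log2 change above 0, against 52.8% of all genes, and without that library 19 of 47 did, against 50.1%. The 9 Ugt1a rows, which share their exons, were all above 0 with the library and all below 0 without it (-0.15 to -0.030).

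Sudachitin against control at ZT6 gave no calls. With edgeR 0 of 46 members passed, against 0% of all tested genes, every adjusted p was 1.0, 1 member (2.17%) had an unadjusted p under 0.05, against 2.12% of all genes, and DESeq2 called 0. Libraries did not overlap for 10 members with higher levels under sudachitin (21.7%) and 4 with lower levels (8.70%), against 15.4% and 16.3% of all genes. Ugt2b5 had the smallest p, with 173 and 191 FPKM in sudachitin and 139 and 150.4 FPKM in control livers, a log2 change of 0.33 (SE 0.12, unadjusted p = 0.022).

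The neighbouring genes Ugt2b34 and Ugt2b36 had log2 changes of 0.27 (SE 0.15) and 0.25 (SE 0.13), also without overlap. The members with lower levels under sudachitin and the smallest p were Sult1b1, with -0.28 (SE 0.15), Gstt3, with -0.23 (SE 0.17), and Gstt2, with -0.30 (SE 0.28). Over all 46 members the log2 changes ran from -0.30 to 0.78. In the same comparison all 7 Kupffer cell markers were higher in both sudachitin livers than in both control livers, against 15.4% of all genes, and 4 of them had an unadjusted p under 0.05, against 2.12%. The list summed to 34 and 54 FPKM in sudachitin ZT6 and 25.6 and 29.1 FPKM in control ZT6 livers, and its part in the members' values was not tested.

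At ZT18 again no member passed. With edgeR 0 of 46 members passed between sudachitin and control, against 0.0138% of all tested genes, 8 members (17.4%) had an unadjusted p under 0.05, against 6.51%, and DESeq2 called Gstt3, against 0.317% of all genes. Gst genes made up 7 of these 8. Libraries did not overlap for 11 members with lower (23.9%) and 5 with higher levels under sudachitin (10.9%), against 15.5% and 15.3% of all genes. A member counted here has both control livers on the same side of both sudachitin livers, so these counts do not rest on control ZT18 replicate 1 alone. The signs of the log2 changes, a different measure, did move with that library. With it 17 of 46 members were above 0, with a median of -0.16, and without it 28 of 47 were, with a median of 0.066. Much of this shift was that of the Ugt1a rows. The 9 Ugt1a rows, which count the same exons, were all below 0 with the library and all above 0 without it (0.069 to 0.14). Among all tested genes 49.6% were above 0 with it and 51.6% without it. The median of all tested genes was -0.0021 with it and 0.0098 without it.

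Of these 8 members, Gstp3 and Gstt3 had log2 changes of similar size without that library. Gstp3, a pi-class gene, had 10.5 and 9.24 FPKM in sudachitin ZT18 livers, against 17.6 and 17.4 FPKM in control ZT18 livers, a log2 change of -0.76 (SE 0.17, adjusted p = 0.52). At ZT6 its values were 11.3 and 11.7 FPKM in sudachitin and 14.3 and 10.2 FPKM in control livers, so that only the control ZT18 pair stood out. Without control ZT18 replicate 1 the ZT18 value was -0.81 (SE 0.20, adjusted p = 0.81).

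Gstt3 had 15.4 and 11.3 FPKM in sudachitin ZT18 and 26.1 and 20.96 FPKM in control ZT18 livers, a log2 change of -0.75 (SE 0.17, adjusted p = 0.53), and -0.65 (SE 0.20, adjusted p = 1.0) without that library. Of its exon bases, 524 are shared with the predicted gene Gm20441 on the same strand, so the counts of the 2 cannot be told apart there. In contrast, the log2 change of Gsta1 was -4.92 (SE 1.4, adjusted p = 0.69) with and -1.03 (SE 1.1, adjusted p = 1.0) without the library, that of Gstm3 -1.96 and -0.16, and that of Gstm1 -0.77 and -0.069.

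The other pi-class genes had values above 0 at ZT18. Gstp1, the main pi-class transferase and one known to be more abundant in male mouse liver, had 515 and 432 FPKM in sudachitin ZT18 and 279.9 and 399 FPKM in control ZT18 livers, a log2 change of 0.53 (SE 0.35, adjusted p = 0.84), and 0.25 (SE 0.38, adjusted p = 1.0) without control ZT18 replicate 1. At ZT6 it had 502 and 253 FPKM in sudachitin and 301 and 459 FPKM in control livers, so mice of 1 group differed by more than the group means at ZT18. Gstp2 followed it at a far lower level, with 4.32 and 2.92 FPKM in sudachitin ZT18 and 1.52 and 2.45 FPKM in control ZT18 livers, a log2 change of 0.92 (SE 0.45), and 0.57 (SE 0.50) without that library. The coding sequences of the pair are 98.1% identical, with 12 differing positions, and 63.5% of the 100-base windows of Gstp2 occur in another gene, so that Gstp2 counts may hold Gstp1 reads. The first 120 coding bases are shown with the 6 differing bases in capitals.
Gstp1: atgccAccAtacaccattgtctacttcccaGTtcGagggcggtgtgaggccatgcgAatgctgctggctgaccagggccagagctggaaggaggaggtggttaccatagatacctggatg
Gstp2: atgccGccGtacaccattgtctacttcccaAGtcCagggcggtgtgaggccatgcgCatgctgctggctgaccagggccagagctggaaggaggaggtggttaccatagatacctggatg

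Averaged over both times, 0 of 46 members passed between sudachitin and control with edgeR, against 0.0207% of all tested genes; 3 members (6.52%) had an unadjusted p under 0.05, against 4.41%, and DESeq2 called 0. These were Gstt3, with a log2 change of -0.49 (SE 0.14), Gstp3, with -0.43 (SE 0.16), and Ugt2b5, with 0.22 (SE 0.086), each at an adjusted p of 1.0. Without control ZT18 replicate 1 their values were -0.40, -0.39 and 0.26. No member separated the 4 sudachitin from the 4 control livers, whereas 0.958% of all tested genes were higher and 0.869% lower without overlap.

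The interaction of treatment and time was tested directly. With edgeR 0 of 46 members passed, against 0% of all tested genes, 5 members (10.9%) had an unadjusted p under 0.05, against 3.78%, and DESeq2 called 0. Those 5 were Gstp3 (log2 difference of the time effects, sudachitin minus control, -0.67, SE 0.24), Ugt2b35 (-0.80, SE 0.28), Gsta2 (-1.74, SE 0.64), Gsta1 (-5.70, SE 2.2) and Gstm4 (-0.60, SE 0.25), each at an adjusted p of 1.0. Without control ZT18 replicate 1 the value of Gsta1 was -1.82, that of Gsta2 -0.74, that of Ugt2b35 -0.42, that of Gstm4 -0.36 and that of Gstp3 -0.73.

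The genes that supply the conjugation reactions gave 2 calls, both between ZT18 and ZT6 over both treatments. Among 10 tested genes of glutathione supply, Cbs, which starts the conversion of homocysteine to cysteine, was lower at ZT18, with a log2 change of -0.97 (SE 0.12, adjusted p = 0.0048), and the glutaredoxin gene Glrx was higher, with 0.47 (SE 0.10, adjusted p = 0.043). These are 1 lower and 1 higher of 10, against 1.82% and 1.86% of all tested genes. The call of Cbs was kept in 8 of 8 omissions of a library and that of Glrx in 1. Gclc, which encodes the catalytic subunit of the enzyme that limits glutathione synthesis, had -0.12 (adjusted p = 0.79). Of 5 tested genes of UDP-glucuronic acid supply and 7 of PAPS supply 0 passed, with 3 and 2 at an unadjusted p under 0.05. Neither did any of 6 other glutathione transferases or of 10 genes of methyl, acyl and acetyl conjugation, with 1 and 4 at an unadjusted p under 0.05. Among all tested genes 20.4% had such a p.

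Among 16 tested genes of the list of regulators, 3 were higher and 1 was lower at ZT18 over both treatments, against 1.86% and 1.82% of all tested genes. The list also held Por, which is not a regulator and is counted among the 3. Dbp, a clock output factor of the PAR bZip class, had 12.9 and 12.4 TMM-scaled CPM in sudachitin ZT18, 8.15 and 11.9 CPM in control ZT18, 52.8 and 40.3 CPM in sudachitin ZT6 and 66.1 and 40.0 CPM in control ZT6 livers, a log2 change of -2.14 (SE 0.20, adjusted p = 0.0017). Por, the electron donor of cytochromes P450, had 1.04 (SE 0.14, adjusted p = 0.0073), the xenobiotic receptor gene Nr1i3 (CAR) 0.58 (SE 0.11, adjusted p = 0.023) and Nfe2l2 (NRF2) 0.52 (SE 0.11, adjusted p = 0.036). The times of Nfe2l2 overlapped through sudachitin livers. It had 64.12 and 71.05 CPM in sudachitin ZT18, 104.6 and 104.6 CPM in control ZT18, 56.12 and 55.17 CPM in sudachitin ZT6 and 59.87 and 64.38 CPM in control ZT6 livers. In control livers alone its log2 change was 0.75 (SE 0.11, adjusted p = 0.036, edgeR), a call kept in 1 of 8 omissions. Of 16 target genes of the xenobiotic sensors, Cyp2b10 was higher at ZT18, with 3.44 (SE 0.70, adjusted p = 0.034), at 0.42 to 2.68 CPM at ZT18 against 0.065 to 0.14 CPM at ZT6. Its highest value was that of control ZT18 replicate 1, without which the log2 change was 2.54 (SE 0.53, adjusted p = 0.023). Of the 8 omissions of a library, the calls of Dbp and Por over both treatments were kept in 8, that of Nr1i3 in 3 and those of Nfe2l2 and Cyp2b10 in 2.

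The 250 bases before the RefSeq start (GRCm38.p6) were read for the 53 members with an entry, to show what the mu-class pair that was lower at ZT18 holds there. The letters TTATGTAA or TTACGTAA (D-box), CACGTG (E-box), TGACNNNGC (antioxidant response element) and TAGGTCA (ROR element), searched on both strands, were absent from the windows of Gstm6, Gstm7, Ugt3a1 and Ugt2b37. Over 32817 promoters they occurred in 0.817%, 0.113%, 6.02%, 10.2% and 2.24%. Among the members, Ugt2b1 held TTATGTAA, Sult1b1 held TAGGTCA, Gsta3 and Gstm5 held the antioxidant element and none held the E-box. The letters CCAAT were found in 17 of the 53 members (33.8% of all promoters) and TATAAA in 10 (12.4% of all promoters). The windows of Gstm6 at chr3:107943735-107943984 and Gstm7 at chr3:107931818-107932067 (both minus strand) are shown 5′ to 3′ with CCAAT, its reverse complement ATTGG and TATAAA in capitals. A match is a description of letters and not of binding.
Gstm6: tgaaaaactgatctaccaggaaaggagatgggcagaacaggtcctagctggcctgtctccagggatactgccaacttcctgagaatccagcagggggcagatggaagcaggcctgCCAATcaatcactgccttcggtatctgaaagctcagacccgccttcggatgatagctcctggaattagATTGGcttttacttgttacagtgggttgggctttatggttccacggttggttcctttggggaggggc
Gstm7: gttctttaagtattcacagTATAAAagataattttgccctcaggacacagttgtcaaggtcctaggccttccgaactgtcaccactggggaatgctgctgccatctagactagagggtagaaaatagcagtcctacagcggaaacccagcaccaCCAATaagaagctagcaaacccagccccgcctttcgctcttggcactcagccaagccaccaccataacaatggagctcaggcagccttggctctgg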

How the data were processed

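Bulk liver RNA was measured in 8 libraries, 2 mice in each of 4 groups taken from the sample titles. Libraries were poly(A)-selected without strand information from RNA of integrity above 9.0, per the labels' protocols. Trimmomatic 0.39, STAR 2.7.2a and HOMER are named in the submitters' processing notes. The deposited expected counts in exons, in steps of 0.5 on GRCm38, were rounded to whole numbers with 0.5 up. The deposited FPKM equal count over exon length over header total within 4e-11.

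Rounded counts of all 8 libraries were fitted with edgeR 4.0.16 in R 4.3.3 (TMM, default filter on low counts, quasi-likelihood F test), as 4 group means or, over both levels of the other factor, an additive model. P-values were adjusted over 14506 transcripts by the method of Benjamini and Hochberg, and SE is the size of a log2 change over the square root of F. DESeq2 1.42.0, limma 3.58.1 on log2(FPKM + 0.1) and log2(FPKM + 1), other scalings, filters and left-out libraries were alternatives; the test was checked on simulated data. Transcript annotation was GENCODE M21. Shared sequence means identical 100-base windows of transcripts, in either direction.

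Named members are those past the threshold, up to 3 in each direction per comparison with the smallest p and no overlap of libraries, the 3 most abundant of each subfamily, and of each gene list the passing genes with the smallest p. Gstm4, Ugt2b35 and the members shown for control ZT18 replicate 1 outside this rule were chosen after their values were seen. Members and lists were chosen with earlier results of these data known. Opposite-strand genes overlap exons of 12 members, and without strand their reads cannot be told apart.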

Additional observations from a re-analysis of the deposited data

How the results depend on the processing

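Direction was the same in every one of the 563 alternative values computed for 34 log2 changes of named members; 517 stayed on their side of the threshold, 24 lost the call and 22 gained one. Most of these 34 were picked because libraries did not overlap between the groups compared, and the rest for the smallest p. Leaving out a library could hardly turn such a sign, so the shared direction was largely set by this choice. Outside these 34, signs did turn without control ZT18 replicate 1. Among them were the uncalled changes of Gstm3 and Gstm1 between the times. Those of the 9 Ugt1a rows turned for sudachitin against control at ZT18 and for ZT18 against ZT6 in control. Members above 0 went from 13 of 46 to 24 of 47 for the interaction (all genes 49.5% and 50.6%). For sudachitin against control over both times they went from 20 of 46 to 31 of 47 (all genes 49.7% and 51.1%). Counts of members called moved as follows. Without a filter on low counts, 13 of 54 members were called for sudachitin against control at ZT18 (1.71% of all genes), 7 for ZT18 against ZT6 in control (3.1%), 6 in sudachitin (3.02%), 5 for the interaction (0.91%), 4 for sudachitin against control over both times (1.09%) and 13 for ZT18 against ZT6 over both treatments (5.72%). DESeq2 called 1 member for sudachitin against control at ZT18 (0.317% of all genes) and 3 for ZT18 against ZT6 in sudachitin (1.89%), and the fit of only the groups compared called 2 in the last (0.376%). Leaving out 1 library gave 0 to 7 members for sudachitin against control at ZT18, 0 to 6 for ZT18 against ZT6 in control, 0 to 3 in sudachitin, 0 to 1 for the interaction and 0 to 7 for ZT18 against ZT6 over both treatments. The 7 at ZT18 (1.27% of all genes) and 6 in control (2.12%) came without control ZT18 replicate 2, when replicate 1 stood for its group alone and was assumed to vary like the others. The highest over the lowest library sum was 1.15 to 1.40 for Gst, 1.11 to 1.60 for Sult and 1.23 to 1.38 for Ugt when 1 library was left out, the low ends being without control ZT18 replicate 1; the Ugt sums here hold all 9 Ugt1a rows, and with the locus counted once they ran from 621 to 818 FPKM. The cause of these moves was not tested. Replicate numbers did not pair the mice (same-number correlations of -0.20 to 0.28); with the replicate number as a block, 4 members were called for ZT18 against ZT6 over both treatments (3.18% of all genes), Gstm4 in and Ugt3a1 out, and 0 in the other comparisons. No symbol had a second row, so the alternative of all rows could not differ; counting the Ugt1a locus once was added after seeing the data. Low counts limit Ugt2b37, Sult1e1 and Ugt2b38.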

Other observations

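Genes of the liver lobule and markers of other cell types were read beside the members, between ZT18 and ZT6 over both treatments unless stated. Of 6 periportal genes, Hal, which breaks down histidine, was lower at ZT18, with a log2 change of -0.52 (SE 0.11, adjusted p = 0.036, edgeR; 1.82% of all tested genes were lower), a call kept in 1 of 8 omissions of a library, and 0 of 8 pericentral genes passed, with 1 at an unadjusted p under 0.05. Of the 13 listed female-biased genes only Fmo2, a flavin monooxygenase, passed, against 1.86% of all tested genes that were higher at ZT18. It had 16 and 12 CPM in sudachitin ZT18, 30.7 and 16.4 CPM in control ZT18, 5.47 and 6.68 CPM in sudachitin ZT6 and 4.61 and 4.84 CPM in control ZT6 livers. Its times did not overlap, and its log2 change was 1.76 (SE 0.27, adjusted p = 0.011), a call lost without either control ZT6 library. None of the 13 male-biased genes passed in this comparison, and none had an unadjusted p under 0.05, against 20.4% of all tested genes.

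No tested marker of hepatocytes, cholangiocytes, Kupffer cells, endothelium, stellate cells, lymphocytes and neutrophils or neighbouring tissue passed in any of the 7 comparisons with edgeR. Between the times, 0 of 7, 2 of 5, 1 of 7, 0 of 5, 2 of 6, 0 of 2 and 0 of 1 tested markers had an unadjusted p under 0.05, list by list. Among all tested genes 20.4% had such a p. The Kupffer list had its highest sum in sudachitin ZT6 replicate 2, at 54.1 FPKM, against 20.9 to 38.4 FPKM in the other libraries. The pancreas genes Cpa1, Pnlip and Ins2 had no count in any library.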
